A study of Mus musculus with 6 samples.

Results

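The genes described here are the 44 genes, of 18180 in the deposited count table, whose pathway annotation in that table holds the entry aminoacyl-tRNA biosynthesis. By the place and kind of their work they were ordered into 21 cytosolic synthetases, 17 mitochondrial synthetases and 6 enzymes that act on a tRNA after it has been charged. RNA was measured in 6 libraries from mouse tail skin. The 3 libraries labelled cKO came from Mettl3fl/fl mice with the genotype K14creERT2+/-, and the tissue was taken from tail areas that had become inflamed without further treatment. The 3 control libraries came from the normal tails of Mettl3fl/fl mice without Cre (K14creERT2-/-). All the mice carried the floxed Mettl3 alleles, and the tissue was collected 4 weeks after 5 daily tamoxifen injections per the series' design text, whose wording does not say outright that the controls were injected too. K14creERT2 is a recombinase driven by the keratin 14 promoter of basal keratinocytes and switched on by tamoxifen, so only part of the cells in whole skin could recombine. The labels give no strain, age or pooling, and nothing in them shows that each library came from its own animal. Since all inflamed tissue was of the Cre-carrying genotype, genotype and inflammation cannot be told apart.

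An aminoacyl-tRNA synthetase joins an amino acid to its matching tRNA at the cost of ATP, and the charged tRNA then delivers that amino acid to the ribosome. Cytosol and mitochondrion each need a full set of charged tRNAs, and for most amino acids separate nuclear genes encode the cytosolic and the mitochondrial enzyme. Several cytosolic synthetases sit in a large assembly, the multisynthetase complex, held together by the scaffold proteins Aimp1, Aimp2 and Eef1e1. Keratinocytes make keratins and cornified envelope proteins in bulk, and charged tRNA is a substrate of that synthesis.

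Total counts ran from 35855880 to 37043849 per library, and all 44 genes passed the low-count filter, with 118 to 8286 counts per gene and library. The targeted gene went against the labels. Mettl3, which encodes the catalytic subunit of the m6A writer, had 569, 512 and 540 counts in the libraries labelled cKO, against 440, 389 and 337 counts in the control libraries (log2 fold change 0.48, SE 0.11, adjusted p = 0.000102). The counts cover the whole gene, and the floxed part was not analysed separately. Markers of keratinocytes were abundant in every library, with a summed level over 10 genes of 61586 to 62317 CPM in the libraries labelled cKO and 33385 to 33643 CPM in control (CPM are counts per 1e+06 counts of the scaled library). Of these 10 genes, 6 were higher and 4 lower. Neutrophil markers summed to 3570.2 to 3624 CPM in the libraries labelled cKO and 107 to 114 CPM in control, with 9 of 9 tested genes higher. These sums differed 32.3-fold, while the median log2 fold change of the 9 genes was 2.86, so the sum overstates the typical marker. Macrophage markers summed to 1253 to 1282 CPM against 865.5 to 885.7 CPM (10 of 10 higher), and T cell markers to 157 to 171 CPM against 137 to 149 CPM (8 of 9 higher). The T cell sums differed 1.13-fold, while the median log2 fold change of the 9 genes was 1.89, so the sum understates the typical marker. Fibroblast markers summed to 18608 to 18627 CPM against 12686 to 12826 CPM (9 of 10 higher, 1 lower). Proliferation genes summed to 709.6 to 715.1 CPM in the libraries labelled cKO and 372 to 399 CPM in control (10 of 10 higher), and adipocyte markers to 634 to 643 CPM against 829 to 843 CPM (8 of 10 lower). Skeletal muscle markers summed to 16.9 to 34.8 CPM against 12.7 to 16.7 CPM. Over all genes tested 30.8% were higher and 30.6% lower. No listed marker found in the table was at 0 in all 6 libraries. These lists moved together with every difference given below, and their part in it was not tested. In whole tissue, fewer cells of a type and less RNA per cell cannot be told apart.

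Most genes for tRNA charging were slightly higher in the libraries labelled cKO, and none changed as much as 2-fold. By edgeR's quasi-likelihood test with Benjamini-Hochberg adjustment over all 15061 genes tested, which is the source of every adjusted p given here, 23 of the 44 rose (52.3%) and 3 fell (6.82%) at an adjusted p under 0.05. Over all genes tested 30.8% rose and 30.6% fell. With both directions together 26 of the 44 were called (59.1%), near the 61.4% of all genes. The groups did not overlap in 27 of the 44 (61.4%), against 64.9% of all genes, so neither of these shares set the 44 genes apart. The median log2 fold change of the 44 was 0.21, and that of all genes tested was 0.00. Called changes of at least 1.5-fold were made by 3 of the 44 (6.82%), Yars2 and Hars among them, against 22.7% of all genes tested. Called changes of at least 2-fold were made by 0 of the 44, against 10.8% of all genes tested.

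Summed over the 44 genes, transcripts came to 2673, 2684 and 2675 CPM in the libraries labelled cKO, against 2337, 2328 and 2348 CPM in the control libraries. The 3 sums of the libraries labelled cKO all lay above the control sums, at 1.15 times their mean. Cytosolic synthetases held most of this, with 2123 ± 4.26 CPM in the libraries labelled cKO and 1826 ± 8.13 CPM in control (mean ± SD, n = 3 each). Mitochondrial synthetases summed to 467 ± 2.38 CPM in the libraries labelled cKO and 426 ± 4.76 CPM in control (SD, n = 3 each). The enzymes that act on charged tRNA summed to 87.1 ± 2.17 CPM and, in control, 85.2 ± 1.90 CPM (SD, n = 3 each).

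**Figure D1:**
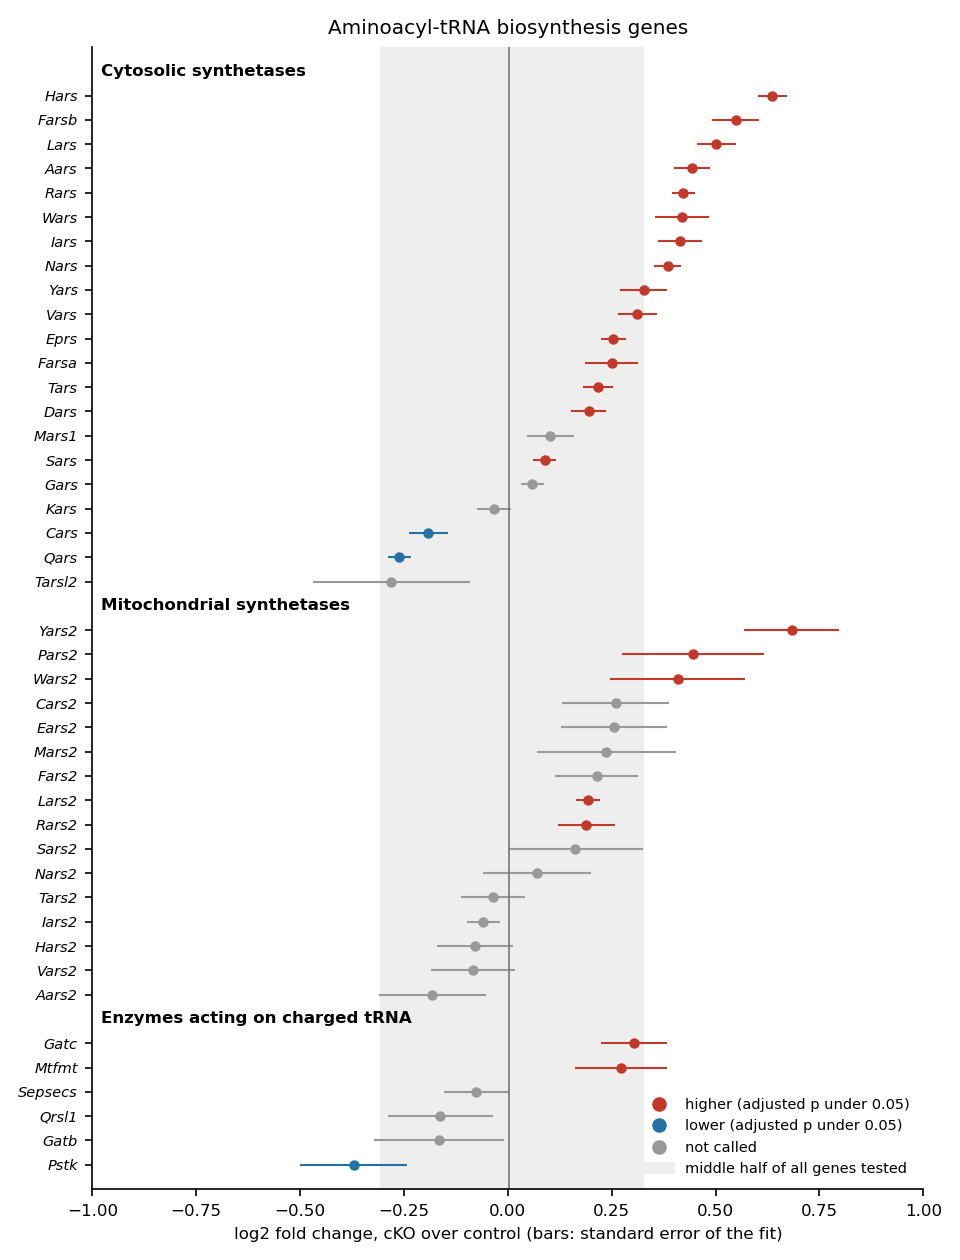
The log2 fold change of 43 of the genes (x axis, libraries labelled cKO over control) is drawn with its standard error, in 3 blocks by class. Red points rose, blue points fell and grey points were not called, and the grey band holds the interquartile range of all 15061 genes tested; most red points stand among the 21 cytosolic synthetases and no point reaches 1.

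Levels of different genes were compared in FPKM, the authors' fragments per kilobase of gene and per 1e+06 counted. Cytosolic synthetases were mostly several times more abundant than mitochondrial ones, with a median over genes of 22.3 FPKM against 3.12 FPKM in the libraries labelled cKO and of 21.7 FPKM against 2.60 FPKM in control. The most abundant of all was Rars, the arginyl-tRNA synthetase gene, at 101 ± 3.15 FPKM in the libraries labelled cKO and 74.4 ± 0.793 FPKM in control (SD, n = 3 each). Gars, the glycyl-tRNA synthetase gene whose products serve both cytosol and mitochondrion, followed at 81.8 ± 2.28 FPKM and, in control, 77.2 ± 2.36 FPKM. Qars, the glutaminyl-tRNA synthetase gene, had 68.0 ± 1.06 FPKM in the libraries labelled cKO and 80.2 ± 0.318 FPKM in control. In the libraries labelled cKO Rars stood clear of both in every library, and in control skin Qars stood highest, while Gars and Rars overlapped there. Among mitochondrial enzymes Lars2, the leucyl-tRNA synthetase gene, stood far above the rest at 45.1 ± 1.02 FPKM in the libraries labelled cKO and 38.8 ± 0.727 FPKM in control, ahead of Iars2 with 13.8 and 14.2 FPKM. The lowest levels were those of Nars2 (0.593 ± 0.0230 and, in control, 0.555 ± 0.0794 FPKM), Wars2 (0.798 ± 0.0616 and 0.591 ± 0.0229 FPKM) and Fars2 (1.25 ± 0.0307 and 1.06 ± 0.0565 FPKM). The gene lengths implied by the deposited counts and FPKM were 15488, 8027 and 12529 bp for these 3, against a median of 2865 bp for the cytosolic class, and FPKM are divided by these lengths.

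**Figure D2:**
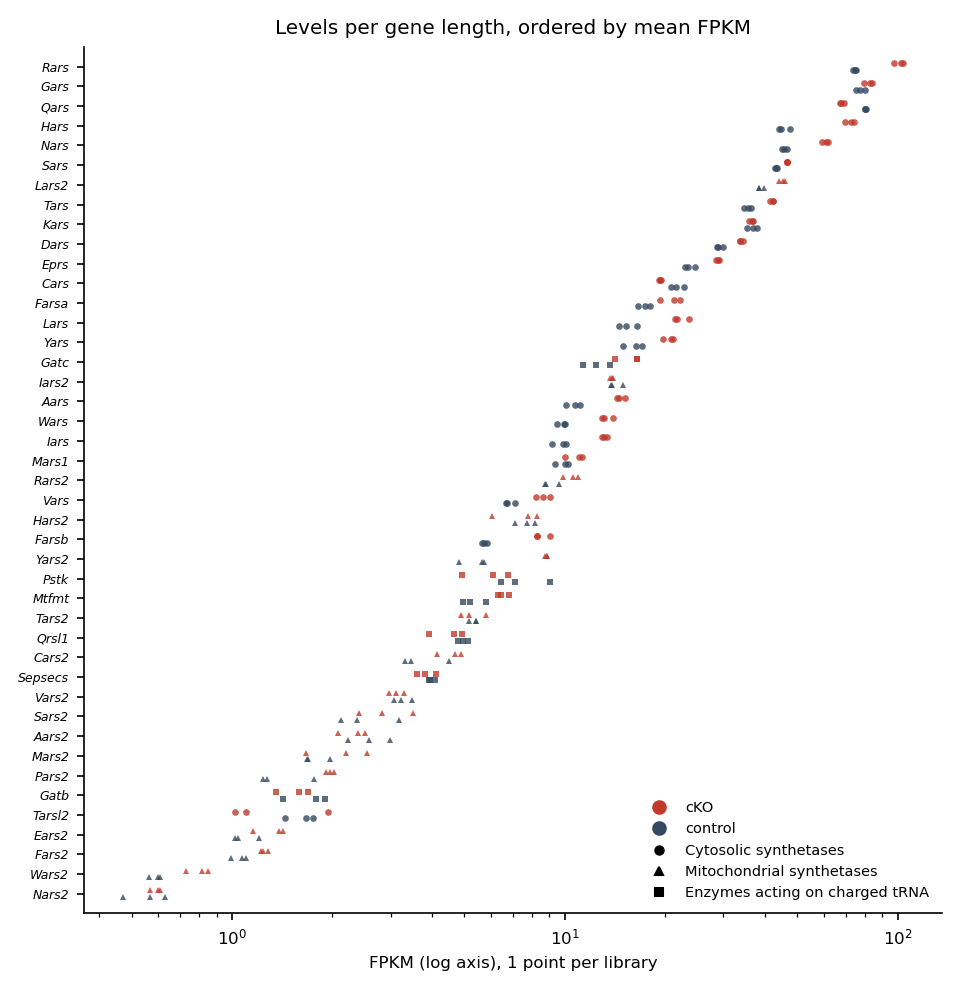
FPKM of 43 of the genes on a log axis, 1 point per library, with libraries labelled cKO in red above control in dark blue for each gene and a marker shape for each class. Circles for cytosolic synthetases fill the top of the order from Rars down, Lars2 is the only mitochondrial gene among the 10 highest, and Nars2 stands last.

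Of the 21 cytosolic synthetase genes, 15 rose (71.4%, against 30.8% of all genes tested), 2 fell and 4 were not called. The median log2 fold change of the class was 0.25. Its median level in the libraries labelled cKO was 22.3 FPKM, against 5.55 FPKM over all genes tested. Calls depend on level and spread, and no share was worked out for genes of like level. Hars, the histidyl-tRNA synthetase gene (NCBI gene 15115), changed most. It had 137.2, 145.6 and 142.8 CPM in the libraries labelled cKO, against 95.6, 89.6 and 88.5 CPM in the control libraries. The groups were far apart, and the rise was 1.55-fold (log2 fold change 0.64, SE 0.035, adjusted p = 1.28e-26). Lars (NCBI gene 107045) encodes the leucyl-tRNA synthetase, which also takes part in leucine sensing for the mTORC1 kinase. It had 92.0, 83.0 and 84.2 CPM in the libraries labelled cKO, against 60.4, 57.6 and 65.0 CPM in control, a 1.42-fold rise without overlap (log2 fold change 0.50, SE 0.046, adjusted p = 1.11e-15). Aars (NCBI gene 234734), for alanine, had 90.6, 95.2 and 91.9 CPM in the libraries labelled cKO, against 64.5, 68.5 and 71.2 CPM in control. Its 1.36-fold rise also left the groups well apart (log2 fold change 0.44, SE 0.043, adjusted p = 5.80e-15). Rars (NCBI gene 104458) had 229.5, 215.7 and 225.8 CPM in the libraries labelled cKO, against 168.9, 166.6 and 165.1 CPM in control. It rose 1.34-fold (log2 fold change 0.42, SE 0.027, adjusted p = 4.61e-23), and its gain in CPM was the largest of the 44 genes.

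The phenylalanyl-tRNA synthetase is built from an alpha and a beta subunit, encoded by Farsa and Farsb. Farsb (NCBI gene 23874) had 51.8, 52.0 and 56.9 CPM in the libraries labelled cKO, against 37.4, 36.01 and 36.5 CPM in control, and rose 1.46-fold (log2 fold change 0.55, SE 0.056, adjusted p = 6.98e-14). Farsa rose 1.19-fold, to 38.6, 35.1 and 40.4 CPM in the libraries labelled cKO against 30.7, 32.0 and 33.2 CPM in control (log2 fold change 0.25, SE 0.064, adjusted p = 0.000524). The ratio of Farsa to Farsb in FPKM was 2.34 to 2.58 in the libraries labelled cKO and 2.84 to 3.15 in the control libraries, so the ranges did not overlap. The level of this ratio rests on the implied gene lengths, 1829 bp for Farsa and 6337 bp for Farsb. In CPM, Farsa was below Farsb in every library. Farsb overlaps Sgpp2 in the genome, a gene with a log2 fold change of -0.58, and Aars overlaps Ddx19b, with -0.42. Without a stated strand setting, reads from such overlaps cannot be assigned with certainty.

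Smaller rises were found for Wars, Iars, Nars, Yars, Vars, Eprs, Tars, Dars and Sars, with fold changes of 1.34, 1.33, 1.31, 1.25, 1.24, 1.19, 1.16, 1.14 and 1.06. None of these 9 genes overlapped between groups, which also held for 64.9% of all genes tested. Wars, the tryptophanyl-tRNA synthetase gene, is known to be induced by interferon-gamma, and had 36.7, 39.8 and 37.3 CPM in the libraries labelled cKO, against 28.8, 27.4 and 28.9 CPM in control. Eprs encodes a fused enzyme that charges both glutamate and proline, and had 184.8, 188.7 and 187.5 CPM in the libraries labelled cKO, against 163.3, 155.2 and 151.9 CPM in control. Sars, for serine, varied less within each group than was typical of the cytosolic class, so it does not stand for the spread of the class. Its 171.3, 171.4 and 171.5 CPM in the libraries labelled cKO stood against 162.6, 160.0 and 160.9 CPM in control, and this difference of 1.06-fold passed the test (log2 fold change 0.09, SE 0.028, adjusted p = 0.00544).

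Qars and Cars went against the class. Qars (NCBI gene 97541) fell 1.199-fold, with 166.7, 171.4 and 167.7 CPM in the libraries labelled cKO, against 202.0, 201.5 and 202.9 CPM in control (log2 fold change -0.26, SE 0.027, adjusted p = 1.48e-13). Cars (NCBI gene 27267), for cysteine, fell 1.14-fold, with 62.0, 62.0 and 61.5 CPM in the libraries labelled cKO, against 67.9, 74.0 and 70.1 CPM in control (log2 fold change -0.19, SE 0.046, adjusted p = 0.000236). In both genes every library labelled cKO lay below every control library. The remaining 4 cytosolic genes were not called. Gars and Kars, for glycine and lysine, each serve both compartments from the same gene, and were nearly level. The log2 fold change of Gars was 0.06 (SE 0.028, adjusted p = 0.0620), and that of Kars was -0.03 (SE 0.040, adjusted p = 0.492). Gars was called higher under 7 other settings, among them upper-quartile scaling and the column totals, with log2 fold changes of 0.06 to 0.09. Mars1, for methionine, had a log2 fold change of 0.10 (SE 0.056, adjusted p = 0.105), and was called higher under 3 other settings. Tarsl2, a second threonyl-tRNA synthetase gene at low level, had 3.49, 6.17 and 3.24 CPM in the libraries labelled cKO, against 5.64, 4.66 and 5.36 CPM in control (adjusted p = 0.197). Replicate 2 of the libraries labelled cKO decided this value, and without it the log2 fold change was -0.63 (adjusted p = 0.00698).

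**Figure D3:**
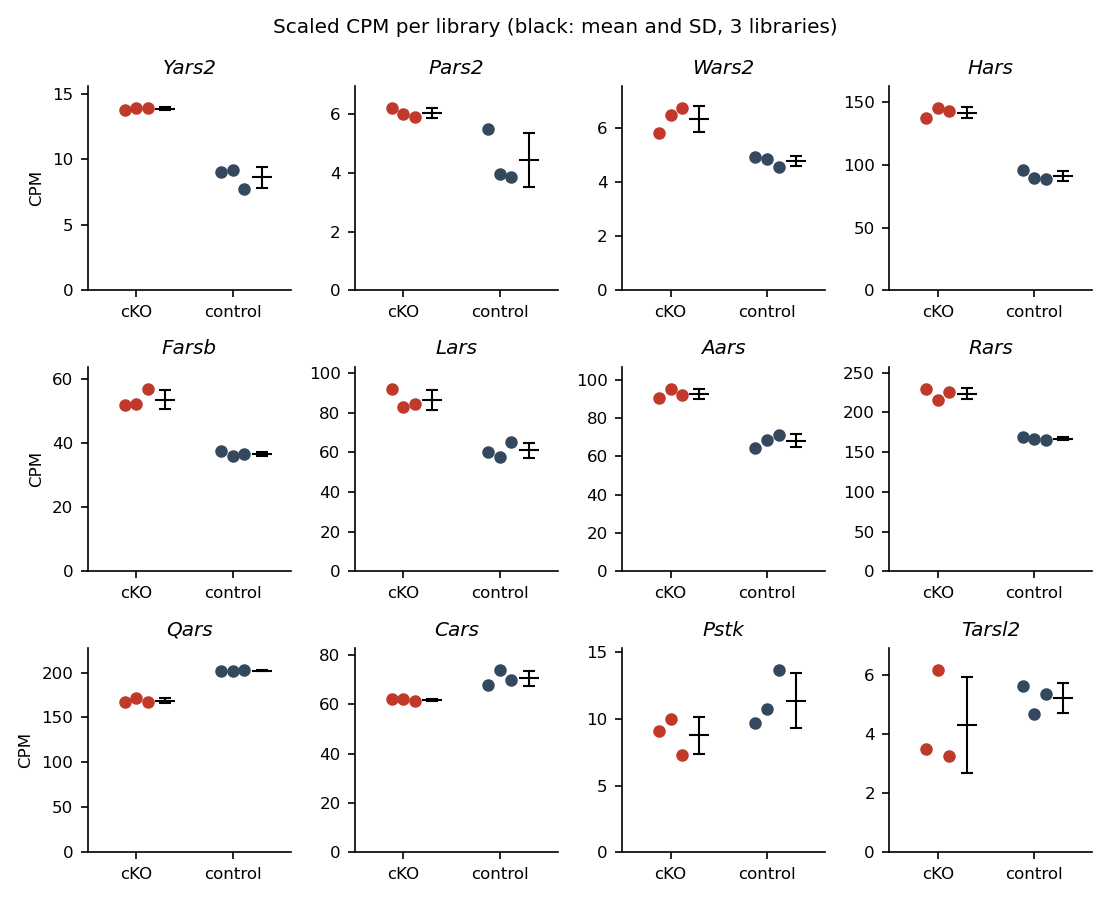
Scaled CPM (y axis from 0) in each library for 12 genes, with the libraries labelled cKO at the left of the control libraries in every panel and the mean ± SD (n = 3) in black. The groups stand apart in the top 2 rows and in Qars and Cars, while Pstk overlaps between groups and Tarsl2 replicate 2 stands above the other cKO points.

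Mitochondrial synthetases rose in 6 of 17 genes (35.3%), near the 30.8% of all genes tested, so this share did not set them apart. At an adjusted p under 0.05, 0 of 17 fell by edgeR, against 30.6% of all genes tested. The count was also 0 of 17 at an unadjusted p under 0.05, and by DESeq2 and limma-voom. In the libraries labelled cKO the class had a median level of 3.12 FPKM, against 5.55 FPKM over all genes tested. No share was worked out for genes of like level and spread, so this 0 does not set the class apart. The median log2 fold change of the class was 0.19. Yars2, for tyrosine (NCBI gene 70120), had 13.8, 13.9 and 13.9 CPM in the libraries labelled cKO, against 9.07, 9.16 and 7.71 CPM in control, a 1.61-fold rise (log2 fold change 0.68, SE 0.11, adjusted p = 3.18e-07). Every library labelled cKO lay clear of the control range.

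Of the other rises in this class, those of Pars2, Wars2 and Rars2 were nearer to the threshold. Pars2, for proline, had 6.20, 6.003 and 5.88 CPM in the libraries labelled cKO, against 5.48, 3.96 and 3.84 CPM in control (log2 fold change 0.44, SE 0.17, adjusted p = 0.0200), with control replicate 1 close to the other group. Wars2, for tryptophan, had 5.82, 6.50 and 6.76 CPM in the libraries labelled cKO, against 4.93, 4.86 and 4.57 CPM in control (log2 fold change 0.41, SE 0.16, adjusted p = 0.0243). Rars2, for arginine, had 33.6, 32.5 and 30.4 CPM in the libraries labelled cKO, against 27.5, 27.2 and 30.0 CPM in control (log2 fold change 0.19, SE 0.069, adjusted p = 0.0142). The call was lost for Pars2 without replicate 1 of the libraries labelled cKO or control replicates 2 or 3, for Wars2 without replicates 2 or 3 of the libraries labelled cKO or control replicate 3, and for Rars2 without replicate 1 of the libraries labelled cKO or control replicates 1 or 2. Lars2 rose 1.14-fold at its high level, with 179.1, 186.7 and 185.1 CPM in the libraries labelled cKO, against 158.9, 164.2 and 159.2 CPM in control (log2 fold change 0.19, SE 0.029, adjusted p = 1.64e-08). The 11 genes that were not called had log2 fold changes from -0.18 (Aars2) to 0.26 (Cars2). Among them, Cars2, Ears2 and Fars2 had adjusted p of 0.0753, 0.0772 and 0.0574, and each was called higher under upper-quartile scaling. Cars2 (log2 fold change 0.41) and Ears2 (0.34) were also called without control replicate 1, Cars2 (0.33) without replicate 1 and Ears2 (0.35) without replicate 2 of the libraries labelled cKO. Iars2, the second most abundant gene of the class, had 86.9, 89.1 and 88.2 CPM in the libraries labelled cKO, against 89.3, 89.5 and 96.5 CPM in control (adjusted p = 0.189). The spread between libraries was wider than in the cytosolic class, with a median coefficient of variation over the mitochondrial genes of 7.07% in the libraries labelled cKO and 6.79% in control. For the cytosolic genes it was 2.86% in the libraries labelled cKO and 3.55% in control.

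For several amino acids, the cytosolic and the mitochondrial gene differed in the direction or size of their change. Among the 15 pairings given here of a cytosolic with a mitochondrial gene (Eprs was paired with both Ears2 and Pars2, and the 2-subunit phenylalanine enzyme was left out), the CPM ratio of cytosolic to mitochondrial transcript was higher in every library labelled cKO than in every control library for 8 pairings, lower for 1 and overlapping for 6. The 8 higher ones were those for histidine, alanine, isoleucine, valine, asparagine, leucine, threonine and arginine, and the lower one of these 15 was that for tyrosine. The histidine pair had the largest difference in log2 fold change, with a ratio of Hars to Hars2 of 6.76, 6.72 and 8.98 in the libraries labelled cKO, against 5.04, 4.38 and 4.07 in control. Hars2 itself had 20.3, 21.7 and 15.9 CPM in the libraries labelled cKO, against 19.0, 20.5 and 21.7 CPM in control (adjusted p = 0.460). The annotated spans of Hars and Hars2, which lie side by side in the genome, overlap at their edge. The ratio of Aars to Aars2 was 9.51, 12.1 and 10.2 in the libraries labelled cKO, against 6.50, 7.99 and 6.21 in control. Aars2 had 9.53, 7.85 and 9.04 CPM in the libraries labelled cKO, against 9.92, 8.57 and 11.5 CPM in control (adjusted p = 0.218). In the tyrosine pair, Yars rose 1.25-fold beside the 1.61-fold of Yars2. Of all single genes tested, 64.9% did not overlap between groups. No such share was worked out for ratios of other genes, so these counts do not set the pairings apart. The pairs were chosen with their values known and carry no test.

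**Figure D4:**
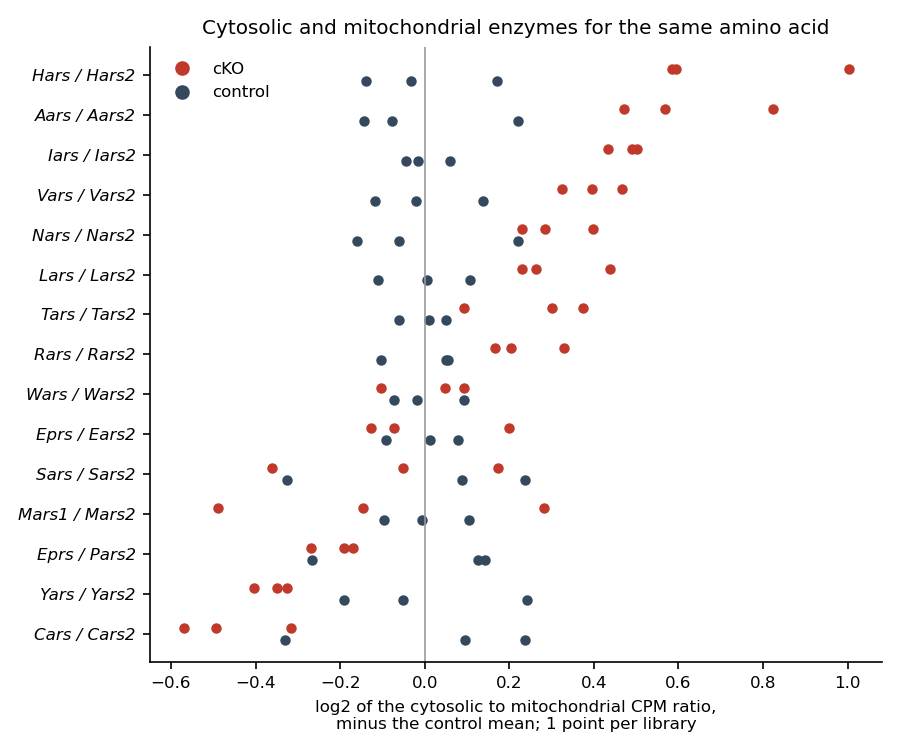
The log2 ratio of cytosolic to mitochondrial CPM for 15 pairings, shown relative to the mean of the control libraries (x axis), 1 point per library, with libraries labelled cKO in red above control in dark blue. Red points stand to the right of all dark blue points in 8 pairings, from Hars and Hars2 downwards, and to the left in the pairing of Yars with Yars2.

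Enzymes acting on charged tRNA did not share a direction. Of the 6 genes, 2 rose and 1 fell, so 50% were called, against 61.4% of all genes tested. Mitochondria make glutaminyl-tRNA by an amidotransferase of the subunits encoded by Qrsl1, Gatb and Gatc, which converts the glutamyl-tRNA charged by Ears2. Gatc rose 1.23-fold, with 29.1, 29.0 and 24.9 CPM in the libraries labelled cKO, against 24.5, 22.3 and 20.4 CPM in control (log2 fold change 0.30, SE 0.079, adjusted p = 0.000594). Qrsl1 (log2 fold change -0.16, adjusted p = 0.266) and Gatb (-0.17, adjusted p = 0.365) were not called. The FPKM ratio of Gatc to Gatb was 9.73 to 10.4 in the libraries labelled cKO and 6.54 to 7.97 in control. Its level rests on implied gene lengths of 1777 bp for Gatc and 3864 bp for Gatb. Gatc overlaps Srsf9 in the genome, a gene with a log2 fold change of 0.47. Mtfmt, which formylates methionyl-tRNA for the start of mitochondrial translation, had 12.8, 13.1 and 13.8 CPM in the libraries labelled cKO, against 10.7, 11.9 and 10.2 CPM in control (log2 fold change 0.27, SE 0.11, adjusted p = 0.0270). Its call was lost when either of control replicates 1 and 3 or replicate 3 of the libraries labelled cKO was left out.

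Selenocysteine is made on its tRNA from serine by the kinase Pstk and the synthase Sepsecs. Pstk had 9.06, 10.02 and 7.28 CPM in the libraries labelled cKO, against 9.70, 10.7 and 13.7 CPM in control. It was called lower (log2 fold change -0.37, SE 0.13, adjusted p = 0.00975) although its groups overlapped. The call was lost without control replicate 3 (log2 fold change -0.21) or replicate 3 of the libraries labelled cKO, and by limma on FPKM. Pstk also overlaps Ikzf5, with a log2 fold change of -0.24. Sepsecs was not called, with 21.4, 22.5 and 24.4 CPM in the libraries labelled cKO, against 24.6, 23.7 and 23.8 CPM in control (adjusted p = 0.410).

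The multisynthetase complex holds 8 of the cytosolic enzymes. Of these, Lars, Rars, Iars, Eprs and Dars rose, Qars fell, and Kars and Mars1 were not called. In the complex 62.5% rose and 75% were called, against 71.4% and 81% of the 21 cytosolic genes. Over all genes tested these shares were 30.8% and 61.4%. The complex held both the called cytosolic gene with the larger fall and 3 genes that rose at least 1.33-fold. Its summed transcripts were 937 to 946 CPM in the libraries labelled cKO and 835 to 838 CPM in control. Among the scaffold genes, which are not in the pathway annotation, Eef1e1 rose 1.64-fold, with 37.2, 39.0 and 36.2 CPM in the libraries labelled cKO, against 23.4, 22.4 and 22.5 CPM in control (log2 fold change 0.72, SE 0.068, adjusted p = 4.24e-15). Aimp2 rose 1.36-fold, with 21.2, 21.6 and 21.8 CPM in the libraries labelled cKO, against 15.9, 16.7 and 14.9 CPM in control (adjusted p = 1.05e-05). Aimp1 had 80.0, 85.4 and 81.8 CPM in the libraries labelled cKO, against 82.9, 80.8 and 81.1 CPM in control (log2 fold change 0.01, SE 0.041, adjusted p = 0.777).

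Many cytosolic synthetase genes are known targets of ATF4, the transcription factor of the amino acid and eIF2 stress response, which binds elements of the kind TGATGCAA together with C/EBP partners. Of 27 listed genes of this response, 17 rose (63%) and 5 fell (median log2 fold change 0.38). Over all genes tested 30.8% rose and 30.6% fell. The cystine transporter gene Slc7a11 rose 2.70-fold, with 97.5, 101.9 and 108.0 CPM in the libraries labelled cKO, against 38.3, 37.3 and 38.3 CPM in control. The mitochondrial folate enzyme genes Mthfd2 and Aldh1l2 rose 2.54-fold and 2.06-fold, and Vegfa, the vascular growth factor gene, rose 1.94-fold. Atf4 itself, named after its values were seen, had a log2 fold change of 0.22. The fall was sharp in Nupr1, a stress-induced nuclear protein gene, with 115.1, 115.0 and 114.8 CPM in the libraries labelled cKO, against 291.0, 291.8 and 287.6 CPM in control. Ppp1r15a, whose product guides the dephosphorylation of eIF2, fell 2.25-fold. The list therefore moved in both directions. Among 5 genes for the eIF2 kinases and their activator, Eif2ak2, the kinase of double-stranded RNA, rose 1.38-fold. Gcn1 rose 1.10-fold, and Eif2ak4, the kinase that senses uncharged tRNA, fell 1.34-fold, with 10.1, 10.2 and 8.46 CPM in the libraries labelled cKO, against 12.9, 13.5 and 12.1 CPM in control (log2 fold change -0.42, SE 0.11, adjusted p = 0.00112).

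These letters were chosen after values had been seen. TGATGCAA or their reverse complement TTGCATCA was looked for, on both strands, in windows from 250 bases before to 50 bases after each annotated start in RefSeq's GRCm38.p6 promoters, another build than that of the counts. Windows were found for 32 of the 44 genes (33 windows), and 4 of them held the letters (12.1%), against 294 of 32851 windows of all genes (0.895%). The 4 genes were Aars, Iars, Tars and Yars and, like most cytosolic synthetase genes, all 4 rose. Their sequences from 130 bases before to 20 bases after the start are shown because they hold the element in different places and strands. Capitals mark the match, which begins 112 and 15 bases before the start in Aars and Tars and at bases 8 and 4 after it in Iars and Yars.
Aars (chr8:111033712-111033861, plus strand): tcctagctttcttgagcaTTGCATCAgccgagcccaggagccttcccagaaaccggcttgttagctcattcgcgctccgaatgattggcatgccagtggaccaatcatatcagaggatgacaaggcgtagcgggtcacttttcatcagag
Tars (chr15:11399639-11399788, minus strand): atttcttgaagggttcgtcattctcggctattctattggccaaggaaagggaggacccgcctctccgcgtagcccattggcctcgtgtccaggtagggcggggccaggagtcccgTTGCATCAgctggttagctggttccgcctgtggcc
Iars (chr13:49682000-49682149, plus strand): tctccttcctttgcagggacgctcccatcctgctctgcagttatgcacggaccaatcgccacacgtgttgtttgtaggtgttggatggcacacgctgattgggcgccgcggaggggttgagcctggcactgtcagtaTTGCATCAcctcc
Yars (chr4:129189773-129189922, plus strand): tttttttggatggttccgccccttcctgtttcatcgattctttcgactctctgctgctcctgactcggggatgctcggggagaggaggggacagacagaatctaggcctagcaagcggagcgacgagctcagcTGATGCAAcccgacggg
In Aars, Tars and Iars the match reads TTGCATCA on the strand of the gene, and in Yars it reads TGATGCAA. The longer form TGATGCAAT with its reverse complement ATTGCATCA was found in 2 of the 33 windows, those of Aars and Iars, and in 63 of all windows (0.192%). A match is a description of letters and shows no binding.

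tRNAs must be cut, trimmed and given their CCA end before they can be charged. Of 29 listed genes for tRNA maturation and proofreading, 16 rose (55.2%, against 30.8% of all genes tested) and 3 fell (median log2 fold change 0.20). With both directions together 65.5% were called, near the 61.4% of all genes. The 4 largest rises were all in subunits of the ribonuclease P and MRP family. Rpp38 rose 2.26-fold, with 21.4, 22.0 and 20.6 CPM in the libraries labelled cKO, against 9.97, 9.30 and 9.07 CPM in control (log2 fold change 1.17, SE 0.099, adjusted p = 1.88e-17). Pop7, Pop1 and Rpp40 rose 1.90-fold, 1.78-fold and 1.69-fold. Elac1, a tRNA 3' end nuclease gene, fell 1.41-fold, and Hsd17b10, a subunit of the mitochondrial ribonuclease P, fell 1.31-fold. As a point of comparison for Wars, 20 of 21 tested interferon-gamma induced genes rose (95.2%, against 30.8% of all genes tested). Their median log2 fold change was 0.89. Cxcl9 and Cxcl10, chemokine genes at low counts, rose 9.20-fold and 3.88-fold, and Ciita and Iigp1 rose 2.73-fold and 2.69-fold, beside the 1.34-fold of Wars.

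**Figure D5:**
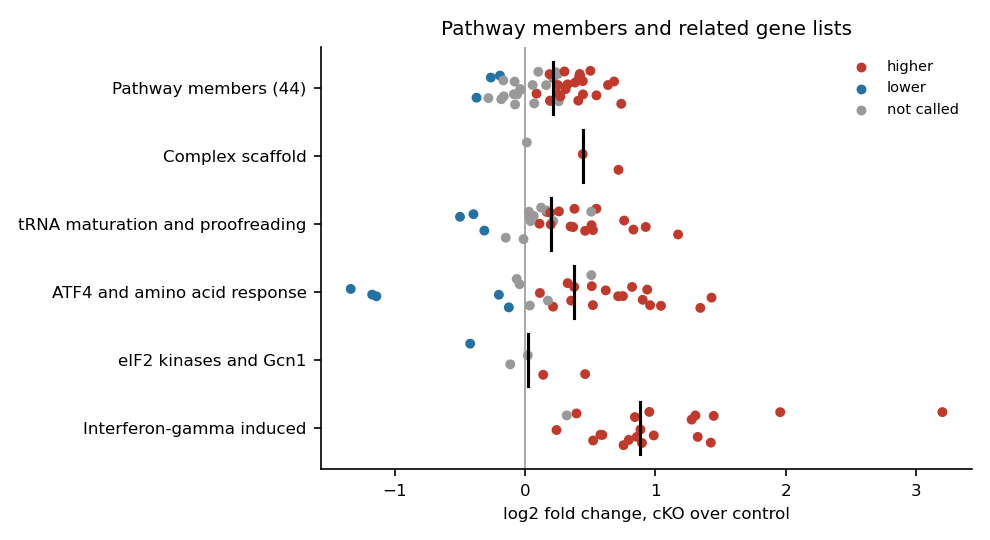
Each point is the log2 fold change of a gene (x axis, libraries labelled cKO over control) in the 44 pathway genes and 5 related lists, with the list's median as a black bar and colours for higher, lower and not called. The median of the pathway genes is 0.21, against 0.38 in the ATF4 list and 0.89 in the interferon-gamma list, and the points of the ATF4 list reach further to both sides than those of the pathway genes.

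Since separate animals are not stated, every p-value given here measures the spread of 3 libraries a group, and that spread may be technical. If a biological coefficient of variation (BCV) of 20% between animals is assumed in place of the measured spread, 3 of the 44 genes passed, among them Yars2 and Hars with adjusted p of 0.0264 and 0.0355, against 22.3% of all genes. With an assumed 40%, edgeR's likelihood ratio test called 0 of the 44, also at an unadjusted p under 0.05, against 5.14% of all genes.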

How the data were processed

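Tail skin was ground in liquid nitrogen and its RNA sequenced, in 3 libraries labelled cKO and 3 control libraries. The authors deposited whole-number counts per gene in 1 table, made with fastp, HISAT2 and HTSeq on mm39 per the submitters' processing notes, without versions or strand setting. The FPKM values, deposited by the authors in a second table, were used to compare levels between genes, and the gene lengths behind them were worked back from counts and FPKM. A gene with at least 10 counts in enough libraries and 15 in all (filterByExpr) was tested with edgeR 4.0.16 in R 4.3.3 by the quasi-likelihood test, with TMM scaling, robust dispersion, group as the only term and Benjamini-Hochberg adjustment over all genes tested. Standard errors are the log2 fold change over the root of F. The steps were tested on simulated data. The 44 genes and all lists were chosen with earlier results of these data known. Named were the called genes with the largest changes without overlap, the 3 highest and 3 lowest FPKM, called genes against the direction of their class, the 3 most different pairs and, per other list, up to 4 called genes in the majority direction and 2 in the other; other genes were named to complete a class. All replicate pairs differed by more than sampling noise. A count of 0 would have allowed up to 0.0810 to 0.0837 CPM (3 counts), which covers counting error only. Alternatives were DESeq2 1.42.0, limma 3.58.1 (voom, and log2 of FPKM plus 1 or 0.1), other scalings, filters and thresholds, a replicate block, an assumed BCV and leaving out each library. The values of 1 of the 44 genes and of the cytosolic to mitochondrial pairing it belongs to are not reported here, and the gene stays in the counts and sums.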

Additional observations from a re-analysis of the deposited data

How the results depend on the processing

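Apart from an assumed BCV, the 44 genes gave 19 to 28 higher and 2 to 4 lower calls under every alternative run, and 21 of the 26 called genes kept their call in all 18 such alternative fits; Mtfmt, Pars2, Rars2, Wars2 and Pstk did not. Upper-quartile scaling gave 28 higher calls and column totals 26. With each library left out in turn, 21 to 24 genes were higher and 2 to 4 lower. With a BCV of 20%, 1830 of all genes were higher and 1531 lower, 3 of the 44 were higher (1 cytosolic and 2 mitochondrial) and 0 lower (5 and 0 at an unadjusted p under 0.05). With 40%, these were 458 and 316 of all genes, and 0 and 0 of the 44 (also 0 and 0 unadjusted) by edgeR's likelihood ratio test. At an adjusted p under 0.01, 3 mitochondrial genes were higher. The median log2 fold change of cytosolic genes, 0.2542, was 0.2833 under upper-quartile scaling, 0.2775 with column totals, 0.2678 by limma on log2(FPKM + 1) with or without a filter, 0.277 on log2(FPKM + 0.1), and 0.2517 to 0.2858 with a library left out. That of mitochondrial genes, 0.1923, was 0.2214 under upper-quartile scaling, 0.1518 on log2(FPKM + 1) with or without a filter, and 0.157 to 0.218 with a library left out. With a library left out, uncalled values crossed 0 for Nars2 (-0.033 to 0.1707), Tars2 (-0.1056 to 0.0196), Hars2 (-0.1683 to 0.0458) and Aimp1 (-0.0086 to 0.0372). Over all genes tested the median was 0.0021 in the main fit, 0.0311 under upper-quartile scaling and 0.025 with column totals. The cause of these shifts was not tested. Same-numbered libraries did not deviate together (r = -0.0154, -0.0155 and -0.0577). With 3 libraries a group, this does not show that the numbers carry no pairing. The replicate block gave 23 higher and 3 lower of the 44, and 4625 and 4587 of all genes. Depth limits Tarsl2, Pars2, Wars2 and Mars2 most, which had the fewest counts.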
